A study of Mus musculus with 12 samples.

Results

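The miRNA arrays carried 26 probes for small nuclear, nucleolar and ribosomal RNAs, which are not miRNAs and are commonly used as references for them. They were chosen by name, as every probe whose name holds SNORD, U6 or 5SrRNA, out of 1642 probes for miRNAs and small RNAs, 595 of them for mouse miRNAs. Of the 26 probes, 20 were named for C/D box small nucleolar RNAs, 4 for the U6 small nuclear RNA and 2 for 5S ribosomal RNA. The names give 17 target RNAs, 10 of which matched a mouse gene symbol in RefSeq, and 10 of the probes carry the prefix hsa_ for human. The sequences of these probes were not available here, so none is printed.

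The arrays compared the livers of male B6C3F1 mice aged 27 to 30 days that received either corn oil, the vehicle, or BaP, which is benzo(a)pyrene, an aromatic hydrocarbon of combustion products that is activated to DNA-damaging metabolites in liver. Mice received 150 mg/kg BaP or vehicle daily for 3 days, and RNA of the median liver lobe was taken 4 h after the last dose from 6 samples a group. Each of the 12 arrays carried liver RNA in the red dye (Hy5) and, in the green dye (Hy3), the same pooled reference RNA of 10 mouse tissues. Dyes were not swapped, so a probe's own dye response cannot be told apart from its ratio of liver to reference.

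C/D box small nucleolar RNAs reside in the nucleolus, where most of them pair with ribosomal RNA and guide the methylation of riboses, and a few take part in cutting the ribosomal precursor. U6 is a small nuclear RNA at the catalytic centre of the spliceosome. 5S ribosomal RNA is a structural part of the large ribosomal subunit. U6, SNORD44 and SNORD48 are often used to normalise miRNA measurements, which presumes that their levels are steady.

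Each probe was printed as 4 spots. The net signal of a spot is its scanner intensity less the local background, and a spot was counted as above background when its net signal passed the median of 28 negative control spots on that array by 2.6 scaled median absolute deviations. That threshold was 1.92 to 28.8 in the liver channel and 33.3 to 89.6 in the reference channel. In liver it was 1.92 on vehicle sample 1 and 2.89 on BaP sample 1, and at least 16.2 on every other array. A probe was above background on an array when most of its spots were. The log2 ratio is log2 of liver over reference after a background correction and an intensity-dependent (loess) adjustment fitted on the spots that are not controls. Signals of different probes depend on how each probe binds and are not set against each other as amounts of RNA. In liver tissue, fewer cells holding an RNA and less of it per cell cannot be told apart.

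The arrays carried the liver label in their miRNAs. The hepatocyte miRNA miR-122 had a log2 ratio of 3.72 ± 0.15 (SD, n = 6) in vehicle liver, with miR-192 at 2.89 ± 0.22 and miR-194 at 2.63 ± 0.20. Of miRNAs known from other tissues, miR-124 and miR-9 of neurons passed background in liver on 1 and 2 arrays, and miR-1 and miR-133a of muscle on 0. Those of blood cells, vessels and smooth muscle were present: miR-451, miR-144, miR-142-3p, miR-126-3p, miR-143 and miR-145 passed it on all 12 arrays and miR-150 on 10. Scans were spread over 4 days that each held both groups, and every array was on a slide of its own.

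Of the 26 probes, 8 exceeded background on all 12 arrays in liver, 3 on some arrays and 15 on none. In the reference, 9 were above background on all 12 arrays, 3 on some and 14 on none. Among mouse miRNA probes, 25.9% exceeded background on all arrays in liver (154 of 595) and 38.3% in the reference (228 of 595). By array, 8 to 11 small RNA probes were above background in liver and 9 to 12 in the reference. The share of probes at background on every liver array was 15 of 26 here and 242 of 595 among mouse miRNA probes.

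The probes that lit up fell in all classes: 3 of 4 U6 probes, 1 of 2 5S probes and 4 of 20 SNORD probes exceeded background on all 12 arrays in liver. The 4 SNORD probes were hsa_SNORD2, hsa_SNORD13, SNORD38B-5 and hsa_SNORD3@. SNORD3, also called U3, takes part in early cuts of the ribosomal precursor, and SNORD13, also called U13, guides an acetylation of the small-subunit ribosomal RNA. Another, hsa_SNORD12, was above background on all 12 arrays in the reference and on 9 in liver. The probe hsa_SNORD14B, for an RNA (U14) needed to form the small ribosomal subunit, was above background on 9 arrays in liver and 11 in the reference. Its lowest liver net signals, 14.9 on vehicle sample 1 and 10.9 on BaP sample 1, passed the low thresholds of those arrays.

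Probes for one RNA did not behave alike. For 7 targets the array held one probe named with the suffix -5 and one with -3, a suffix that the files do not explain. Of the 7 probes named -5, 3 exceeded background on all 12 arrays in liver, whereas 0 of the 7 named -3 were above background on any array in either channel. For 5S ribosomal RNA, 5SrRNA-5 had a median liver net signal of 7761 and 5SrRNA-3 one of 4.19. For U6, the medians were 288 for U6B-5 and 5.64 for U6B-3. For SNORD38B, they were 138 for SNORD38B-5 and 6.84 for SNORD38B-3. A probe at background is therefore given here as that, and not as a low level of its RNA.

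The RNAs that are common references for miRNA assays gave little signal apart from U6. SNORD48-5 was above background in liver on 2 arrays and in the reference on 4, and SNORD44-5 on 0 and 3. The liver arrays for SNORD48-5 were vehicle sample 1 and BaP sample 1, which had the lowest thresholds. Its net signals there, 8.02 and 4.17, were its lowest, while 22.3 on BaP sample 2 did not pass. SNORD48-3 and SNORD44-3 were above background on 0 arrays. The same held for SNORD66 and SNORD49A, with both of their probes at background on all 12 arrays. Single probes at background in both channels throughout were those for SNORD4A, SNORD6, SNORD10, SNORD15A and SNORD118, the last known as U8 and needed to process large-subunit ribosomal RNA. Over the 14 probes that were never above background in either channel, array values lay between -17.0 and 24.9 in liver, with a median of 3.91, and between 6.21 and 79.1 in the reference, with a median of 18.9.

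5SrRNA-5 gave strong signal on every array. Its liver net signals were 11269, 5891, 6887, 7831, 10465 and 7692 in vehicle samples 1 to 6, and 10684, 9805, 5743, 9121, 7053 and 6521 in BaP samples 1 to 6. The groups overlapped over nearly their whole range. Its reference signal, from the same RNA on each array, ran from 4429 to 8332.

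U6-snRNA-2 was the bright U6 probe. Its liver net signals were 7634, 2918, 4306, 5858, 8493 and 6640 in vehicle samples 1 to 6, and 7414, 7959, 3776, 6457, 4969 and 5798 in BaP samples 1 to 6. Vehicle samples 2 and 3 and BaP sample 3, all scanned on one day, were the lowest, while BaP sample 2, scanned on the same day, was the highest of its group on 1 spot without a flag. The groups overlapped. In the reference it ran from 8826 to 16272, above the liver signal on all 12 arrays.

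The other U6 probes were dimmer. U6-snRNA-1 ran from 269 to 651 in vehicle liver, with a median of 366, and from 247 to 491 in BaP liver, with a median of 408. U6B-5 ran from 151 to 440 around 307 in vehicle liver and from 174 to 563 around 281 in BaP liver. For both, the range in one group covered most of that in the other.

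Among the SNORD probes, hsa_SNORD2 ran from 471 to 938 in vehicle liver, with a median of 704, and from 387 to 893 in BaP liver, with a median of 680. The probe hsa_SNORD13 ran from 137 to 269 around 204 in vehicle liver and from 156 to 224 around 194 in BaP liver. The BaP range of hsa_SNORD13 lay inside the vehicle range. SNORD38B-5 ran from 104 to 191 around 130 in vehicle liver and from 86.3 to 187 around 139 in BaP liver. The probe hsa_SNORD3@ ran from 72.2 to 132 around 84.2 in vehicle liver and from 59.4 to 142 around 99.4 in BaP liver, so its groups overlapped too.

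Single spots went astray on 2 of the 96 combinations of these 8 probes with an array. One spot of hsa_SNORD13 read 3695 in liver on BaP sample 5, where the other spots had a median of 180. One spot of hsa_SNORD3@ read 1930 on vehicle sample 6, where the others had a median of 77.6. The same spots were also high in the reference channel, at 5560 and 7388. Both carried the scanner's flag for outliers and were left out of every mean. Over all 384 spots of the 8 probes, 10.7% carried such a flag, and 0 spots of the 26 probes were saturated. Most of these flags fell on U6-snRNA-2 and U6-snRNA-1. U6-snRNA-2 kept 1 spot without a flag on BaP sample 2, and U6-snRNA-1 kept 1 on BaP sample 1.

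Against the pooled tissues, 1 of the 10 probes that could be compared differed by at least 2-fold in vehicle liver. These 10 were the probes that exceeded background in liver on 3 or more arrays of either group. The small RNA probes above background in the reference on all vehicle arrays were the same 10. U6-snRNA-2 had a log2 ratio of -1.18 ± 0.23 (SD, n = 6), which is 2.27-fold lower in liver than in the reference. Among 285 mouse miRNAs above background in the reference on all vehicle arrays, 23.5% were at least 2-fold lower in vehicle liver and 7.72% at least 2-fold higher. Of the small RNA probes, 1 of 10 was lower by that much and 0 were higher, and no test was made of the difference in shares. Other adjustments gave other counts: 4 lower and 0 higher without any, 0 lower and 1 higher with a loess on all spots, 0 lower and 2 higher with a loess on mouse miRNA spots above background, and 0 of either with median centring or floored net signals.

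The ratios of the other 9 probes lay nearer to 0. The highest was hsa_SNORD13 at 0.75 ± 0.12 on the log2 scale in vehicle liver (SD, n = 6), or 1.68-fold higher, with 5SrRNA-5 next at 0.54 ± 0.10, or 1.45-fold. Their order turned in 5 of 8 settings. Both lay above 0 on all 6 vehicle and all 6 BaP arrays, since their lowest values were 0.51 for hsa_SNORD13 and 0.27 for 5SrRNA-5. The probe hsa_SNORD2 followed at 0.27 ± 0.25, SNORD38B-5 at 0.17 ± 0.20 and hsa_SNORD14B at 0.10 ± 0.08. Below 0 were hsa_SNORD12 at -0.08 ± 0.11, hsa_SNORD3@ at -0.10 ± 0.18, U6B-5 at -0.18 ± 0.17 and U6-snRNA-1 at -0.34 ± 0.13. From hsa_SNORD2 to hsa_SNORD14B, and from hsa_SNORD12 to U6-snRNA-1, neighbours in this order differed by less than the larger of their SDs.

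These ratios depended on how dye and intensity were adjusted. Before any adjustment, U6-snRNA-2 stood at -1.25 ± 0.44, U6-snRNA-1 at -1.27 ± 0.40 and U6B-5 at -1.17 ± 0.42 in vehicle liver (log2, SD, n = 6). The 3 probes for U6 thus lay within 0.10 of each other. The loess adjustment moved U6-snRNA-2 by 0.07 and the dimmer U6-snRNA-1 and U6B-5 by 0.93 and 0.99. Afterwards the 3 probes for the same RNA reached from -1.18 to -0.18. When the loess curve was fitted only on mouse miRNA spots above background, they lay within 0.21 of each other, between 0.18 for U6-snRNA-1 and 0.39 for U6-snRNA-2. Over 8 settings, U6-snRNA-2 ranged from -1.65 to 0.39 and was above 0 in 1. The ratio of 5SrRNA-5 ranged from 0.04 to 2.02 and was above 0 in all 8. The direction against the reference also turned for hsa_SNORD13 (-0.25 to 1.15), hsa_SNORD2 (-0.58 to 0.90), SNORD38B-5 (-0.83 to 0.58), hsa_SNORD3@ (-1.06 to 0.21), U6-snRNA-1 (-1.27 to 0.18), U6B-5 (-1.17 to 0.21) and hsa_SNORD14B (-0.41 to 0.10). The mean of hsa_SNORD12 was below 0 in all 8.

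One relation moved little with the settings: the ratio of 5SrRNA-5 stood above that of U6-snRNA-2 on the same array. Both probes lie at the bright end of the range, where mean log2 intensities were 12.8 and 13.1. Adjustments by array or by intensity move probes of such similar intensity nearly alike. The small change over the settings was thus largely given beforehand and is no separate support for the relation. The difference of their log2 ratios was 1.71 ± 0.19 in vehicle liver (SD, n = 6) and 1.56 ± 0.20 after BaP (SD, n = 6). Values lay between 1.31 and 1.99 on single arrays and were above 0 on 12 of 12. In vehicle liver the mean was 1.63 to 1.71 over the 8 settings. This equals a 3.28-fold higher ratio of 5SrRNA-5 to U6-snRNA-2 signal in liver than in the pool, with the dye response of each probe included. Against the dimmer U6 probes, which the adjustment moved, the difference ran from 0.88 to 1.84 for U6-snRNA-1 and from 0.71 to 1.81 for U6B-5.

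Of the SNORD probes, hsa_SNORD2 and hsa_SNORD13 were set against U6-snRNA-2 in the same way. The log2 ratio of hsa_SNORD2 exceeded that of U6-snRNA-2 by 1.45 ± 0.22 in vehicle liver, and by 0.51 to 1.45 over the settings. For hsa_SNORD13 the difference was 1.93 ± 0.18, and 0.77 to 2.38 over the settings. Both differences were above 0 on 12 of 12 arrays in every setting, while their size followed the adjustment.

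None of the 10 probes passed the test of BaP against vehicle. In limma's fit over 222 tested probes, 0 of the 10 small RNA probes passed a Benjamini-Hochberg adjusted p of 0.05, where 0% of all tested probes did. At an unadjusted p under 0.05 the count was 0 of 10, against 0.901% of all tested (2 of 222). The exact two-sided permutation test over all 924 regroupings of the arrays, whose smallest possible p is 0.00216, gave 0 of 10 as well, and 3 of all 222. All 10 adjusted p-values were 0.991 in limma.

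The differences were small and their intervals narrow. The log2 ratio was higher in BaP liver for 8 of the 10 probes and lower for 2, where 134 of all 222 were higher and 88 lower. The median difference was 0.06, beside 0.02 over all 222. The difference for U6-snRNA-2 was 0.14, with a 95% interval from limma of -0.11 to 0.40, and 5 of 6 BaP arrays lay above the vehicle mean. In U6-snRNA-1 and U6B-5 it was 0.07 (-0.13 to 0.26) and 0.06 (-0.14 to 0.26). All 3 probes for U6 thus lay a little above 0 with intervals that cover 0.

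For ribosomal RNA the estimate was near 0. 5SrRNA-5 differed by -0.01 (-0.18 to 0.16), with 3 of 6 BaP arrays above the vehicle mean. Among the SNORD probes, hsa_SNORD13 differed by 0.10 (-0.10 to 0.29), SNORD38B-5 by 0.08 (-0.15 to 0.30), hsa_SNORD3@ by 0.06 (-0.13 to 0.24) and hsa_SNORD2 by 0.06 (-0.22 to 0.33). The dim hsa_SNORD12 and hsa_SNORD14B differed by 0.04 (-0.11 to 0.18) and -0.02 (-0.13 to 0.09). Over the 10 probes the intervals reached from -0.22 to 0.40, so that a log2 ratio difference of 2-fold or more lay outside all of them. This holds for the scale and not for the RNA of dim probes. The background correction used an offset of 50, which shrinks differences where signals are low. Median liver net signals were 84.2 for hsa_SNORD3@ and 23.6 for hsa_SNORD12, with hsa_SNORD14B dimmer still. For such probes the intervals do not exclude a 2-fold change of the RNA.

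Within scan days the differences took either sign. For U6-snRNA-2 they were -0.0031 on the first day, -0.13 on the second, 0.35 on the third and 0.14 on the fourth, and 0.13 with scan day as a block. For 5SrRNA-5 they were 0.01, -0.11, 0.06 and -0.0041, and -0.0040 with the block. A day held 1 or 2 arrays a group.

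In the authors' deposited table of normalized values, 2 of the probes had values. Its values run the opposite way, as log2 of reference over liver, with slopes of -1.02 to -0.91 against the log2 ratio used here, and its centring is not stated. Column medians lay between -0.09 and -0.0003. In the authors' deposited table U6-snRNA-2 stood at 0.68 ± 0.18 in vehicle liver and at 0.62 ± 0.26 after BaP (SD, n = 6 each), and U6-snRNA-1 at 0.08 ± 0.17 and -0.0004 ± 0.23. Turned to liver over reference, the differences of BaP from vehicle were 0.06 and 0.08, with an adjusted p of 0.985 for both in limma.

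As a measure of steadiness, the SD of the log2 ratio over the 12 arrays was 0.126 to 0.230 for the 8 probes above background throughout, with a median of 0.162. The 212 tested mouse miRNAs had a median of 0.152, and the 98 as bright as the dimmest of the 8 probes had 0.204. Before adjustment, the 98 had 0.416 and the 8 probes 0.390. The order turned in single channels scaled by the 75th percentile of mouse miRNA probes above background. There the 98 had 0.215 in liver and 0.159 in the reference, and the 8 probes 0.265 and 0.219. In unscaled liver signal it was 0.465 for the 98 and 0.350 for the 8. With the loess adjustment, 5SrRNA-5 had the lowest SD of the 8, at 0.126 and rank 79 of the 222 tested probes. U6-snRNA-2 and hsa_SNORD2 had the highest, at 0.224 and 0.230, ranks 183 and 187. This order changed with the adjustment. Over 9 settings, which include the liver channel alone, 5SrRNA-5 ranked between 1 and 7 of the 8 from the lowest SD and hsa_SNORD2 between 1 and 8. U6-snRNA-2 ranked between 6 and 8 in all 9, with the highest SD in 6, among them the setting with flagged spots kept (0.260). The probe hsa_SNORD13 had the lowest SD in 4.

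The miRNAs nearest in liver signal to 5SrRNA-5 and U6-snRNA-2 give a scale for these SDs. They were miR-709 and let-7a beside 5SrRNA-5, and let-7a and let-7f beside U6-snRNA-2. With loess, the SDs of miR-709, let-7a and let-7f were 0.256, 0.209 and 0.217, above the 0.126 of 5SrRNA-5 and around the 0.224 of U6-snRNA-2. No array held 2 spots of miR-709 without a flag, so its SD rests on single or flagged spots. miR-122, far brighter, had 0.164. The mature sequences of the let-7 pair are shown since these miRNAs serve here as the yardstick, with the seed (bases 2 to 8), which they share, in capitals, from RefSeq on GRCm38.p6.
let-7a (chr13:48538239-48538260, minus strand): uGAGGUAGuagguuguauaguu
let-7f (chr13:48537889-48537910, minus strand, and chrX:151912353-151912374, plus strand): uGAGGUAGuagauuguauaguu

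Spots of a probe were closer to each other than arrays were. The SD of the spots of one probe within an array was taken on the log2 ratio before adjustment. It had a median of 0.04 for the 8 probes, from 0.03 to 0.08. Between arrays, the same ratio had a median SD of 0.390. In single channels, the liver signal of the 8 probes had a median SD between arrays of 0.350. The reference signal, which comes from one RNA, had 0.181. For all 8 probes the liver SD was above the reference SD, as it was for 204 of 212 miRNAs.

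The probes shared most of this movement. Before adjustment, the mean log2 ratio of the 8 probes ran from -1.33 to -0.32 over the arrays with an SD of 0.349, and that of 142 mouse miRNAs above background in both channels throughout from -1.54 to -0.54 with an SD of 0.335. The small RNA mean less the miRNA mean had an SD of only 0.096 and lay between 0.11 and 0.47. Among single probes, 5SrRNA-5 followed the miRNA mean closest, with an SD about it of 0.097, and 16.2% of the 142 miRNAs were closer. U6-snRNA-2 followed it least, with an SD of 0.221, and 88.0% of the miRNAs were closer. The other 6 lay between, with hsa_SNORD2 at 0.120, hsa_SNORD3@ at 0.131, hsa_SNORD13 at 0.133, SNORD38B-5 at 0.135, U6-snRNA-1 at 0.165 and U6B-5 at 0.184.

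The probes were also set against each other in the liver channel by the geNorm measure M, the mean SD of a probe's log2 signal difference from each of the other probes. SNORD38B-5 had the lowest M at 0.179, with 5SrRNA-5 at 0.186 and U6-snRNA-1 at 0.194. U6B-5 had the highest at 0.276 and U6-snRNA-2 stood at 0.253. The median was 0.231, beside 0.278 for the 142 miRNAs. The closest pair was 5SrRNA-5 and SNORD38B-5, whose difference had an SD of 0.111, and the farthest was U6B-5 and hsa_SNORD3@ at 0.360. The pairs of U6 probes had SDs of 0.208, 0.170 and 0.262, beside a median of 0.217 over all 28 pairs.

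Part of the spread went with the day of the scan. In limma with the group in the model, 6 of the 10 small RNA probes passed an adjusted p of 0.05 for scan day, where 25.9% of tested miRNAs did (55 of 212). The lowest adjusted p was 0.00461, for hsa_SNORD2, whose mean log2 ratio was 0.74 on the first day and 0.25, 0.27 and 0.08 on the others. SNORD38B-5 (0.0123), hsa_SNORD13 (0.0143), hsa_SNORD3@ (0.0241), U6-snRNA-1 (0.0271) and U6B-5 (0.0460) were the other 5, and 5SrRNA-5 had 0.0540. Without BaP sample 1, one of the 2 arrays of the first day, the count was 0, and 1 of 212 miRNAs passed. Without vehicle sample 1, vehicle sample 4 or BaP sample 4 it was 3 each time. Without any adjustment of the ratios, or with median centring, it was also 0. This comparison was added after the data had been seen, and scan day cannot be told apart from what else those arrays shared.

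On hsa_SNORD2, the first-day arrays were the highest of their groups. Its log2 ratio was 0.69, 0.22, 0.36, 0.10, -0.02 and 0.25 in vehicle samples 1 to 6, and 0.79, 0.27, 0.21, 0.16, 0.31 and 0.20 in BaP samples 1 to 6. Both samples numbered 1 were scanned on the first day. They were the only arrays where the median of the negative control spots in liver was below 0, at -4.71 and -10.2. Whether this bears on the ratio was not tested. Apart from these arrays, the probe's values spanned -0.02 to 0.36 in vehicle and 0.16 to 0.31 in BaP liver.

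As normalizers, the 8 probes were tried by taking their mean log2 ratio from every array in place of the loess adjustment. The median SD of the 212 miRNAs within groups fell from 0.324 without adjustment to 0.197. Median centring, which took the median of all mouse miRNA spots with those at background included, gave 0.267. Loess, fitted on spots that include those of these miRNAs, gave 0.156. By class, the 4 SNORD probes gave 0.181, 5SrRNA-5 gave 0.221 and the 3 U6 probes 0.262. Of single probes, hsa_SNORD13 gave the lowest SD at 0.181, and U6-snRNA-2 the highest at 0.306, little below no adjustment. In the liver channel alone, the 8 probes took the median SD from 0.382 to 0.214. There, the 75th percentile of the mouse miRNA probes above background in liver on all arrays gave 0.268.

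Such a scaling shifts all miRNAs of an array alike, so it carries the small RNA probes' own differences between the groups, none of which passed the test, over to every miRNA. Under each of these scalings, 0 of 212 miRNAs passed an adjusted p of 0.05 for BaP against vehicle in limma. At an unadjusted p under 0.05, 1 passed with all 8 probes, 1 with U6, 4 with SNORD, 2 with 5S and 2 with loess. The share of miRNAs higher in BaP liver was 16.0% with all 8 probes, 9.43% with U6, 13.2% with SNORD and 68.9% with 5SrRNA-5. It was 59.4% with loess, 79.7% with median centring and 42.0% with no adjustment. The median miRNA difference moved with it, from -0.07 with the 8 probes and -0.10 with U6 to 0.04 with 5SrRNA-5 and 0.02 with loess, so these shares describe the scale and not the miRNAs. Without BaP sample 2 the median with the 8 probes was -0.03, and without BaP sample 3 it was -0.12, with 9 miRNAs at an unadjusted p under 0.05.

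Some miRNAs of the array are known to be cut from small nucleolar or ribosomal RNAs, or to overlap them. Of 10 such probes, 7 were above background often enough to enter a fit of 466 mammalian probes, where 0% passed the adjusted threshold and 0.644% an unadjusted p under 0.05. Of the 7, 0 passed, each interval covered 0, and they had adjusted p-values of 0.995 to 0.997 in limma. The probe for human miR-768-5p, a sequence that overlaps a small nucleolar RNA, was above background on all 12 arrays in both channels, with a log2 ratio of 0.97 ± 0.19 in vehicle liver and 0.93 ± 0.22 after BaP (SD, n = 6 each). miR-712, which lies in the ribosomal precursor in mouse, was above background in liver on 9 arrays and stood at 0.37 ± 0.12 and 0.26 ± 0.10. miR-715 was above background on 11 and stood at 0.62 ± 0.87 and 0.22 ± 0.12. The SD of miR-715 in vehicle liver exceeded its difference between groups.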

How the data were processed

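Per the labels, each array is one liver sample in Hy5 against a pooled reference in Hy3. The array files hold the deposited scanner intensity per spot. The submitters' processing notes name Agilent Feature Extraction (9.5.3.1). The authors' deposited table holds log2 values, with its normalization and centring not given in the sources used here. Intensities were corrected with normexp (offset 50) and loess (span 0.3) with limma (3.58.1, in R 4.3.3). Control spots, which include the small RNA probes, had weight 0 in the loess. Flagged spots were left out, unless all spots of a probe on an array were flagged, and spots of a probe averaged. Tests used lmFit and eBayes on 212 mouse miRNA and 10 small RNA probes, those exceeding background in liver on 3 or more arrays of either group, adjusted by Benjamini-Hochberg. The fit was checked on simulated data. The number of arrays, 6 a group, limits the precision. Nothing in the labels ties samples to separate animals, and p-values therefore refer to the spread among samples, which may be technical. Replicate numbers follow the order of deposit and pair nothing. All small RNA probes are accounted for, and those above background on all arrays are given by array or range; the miRNAs beside them are those nearest in liver signal. Members and lists were chosen with earlier results of these data known. Alternatives were other background corrections, normalizations, single channels, scan day as a block and leaving out each array.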

Additional observations from a re-analysis of the deposited data

Results flagged for a closer look

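The log2 ratio of hsa_SNORD2 on BaP sample 1 was 0.79, far from the other 5 BaP samples, which lay between 0.16 and 0.31. Such gaps were looked for in 32 groups of arrays, and chance alone gives one in about 1 of 20. BaP sample 1 also had the lowest median of negative control spots in liver, -10.2, and a link was not tested.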

How the results depend on the processing

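The count of 8 probes above background in liver on all 12 arrays fell to 0 with the control median plus 3 SD and to 0 with the highest control spot as threshold. On 3 arrays 1 control spot read over 100, the highest 34864. Without these spots, an alternative chosen after seeing the data, both gave 8. The 1 probe at least 2-fold from the reference became 4 without normalization, 0 with median centring, 0 with net signals floored at 1 and 2 (5SrRNA-5 and hsa_SNORD13, both higher) with loess on spots above background. With loess on all spots the 1 probe was 5SrRNA-5, higher at 1.53, and U6-snRNA-2 stood at -0.12. U6-snRNA-2 turned to 0.39 with loess on spots above background. In the authors' deposited table, whose centring is not stated, it stood at 0.68 as reference over liver in vehicle samples, which is less than 2-fold. The median SD of 0.162 became 0.390 without normalization, 0.341 with median centring, 0.237 with net signals, 0.249 with the scanner's processed signals and 0.265 with the liver channel alone. The median of the 212 miRNAs was lower in each, at 0.315, 0.259, 0.236, 0.242 and 0.264. The causes were not tested.

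The scan day count of 6, also chosen after seeing the data, was 0 without normalization, 0 with median centring, 3 with loess on all spots, 1 with loess on spots above background, 1 with net signals, 0 with processed signals and 0 with flagged spots kept. It was 7 with the liver channel alone and 6 with the reference channel alone; leaving out single arrays gave 0 to 7.

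No small RNA probe passed the test of BaP against vehicle under any alternative run, and the small differences changed sign in some. For 5SrRNA-5 the difference was 0.0304 with median centring, 0.0126 with processed signals, 0.152 with the liver channel alone, 0.0852 with the reference channel alone, 0.0102 on scan day 1, 0.0575 on scan day 3, and -0.0457 to 0.0413 leaving out single arrays. For U6-snRNA-2 it was -0.00305 on day 1 and -0.132 on day 2. For hsa_SNORD2 it was -0.0522 with the reference channel alone, -0.0480 on day 3 and -0.0364 to 0.141 leaving out single arrays. The reference channel alone, which holds the same pooled RNA on every array, gave -0.00775 for U6-snRNA-1, -0.0450 for hsa_SNORD13 and -0.0277 for SNORD38B-5. By day, U6-snRNA-1 gave -0.0442 on day 2 and -0.123 on day 4, U6B-5 -0.0708 on day 1 and -0.0828 on day 4, hsa_SNORD13 -0.0923 on day 4, and SNORD38B-5 -0.0489 and hsa_SNORD3@ -0.0507 on day 3. No paired analysis was possible because replicate numbers follow the order of deposit. Signals near the negative controls limit the 3 probes above background on some arrays.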
